A study of Mus musculus with 4 samples.

Results

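Inhibitory neurons of the hippocampus were followed through 10 genes by which they are usually recognised, 4 neuropeptide genes (Npy, Sst, Cck and Vip), the 2 GABA synthesis genes (Gad1 and Gad2), 2 calcium buffer genes (Pvalb and Calb2), the transcription factor gene Dlx1 and the nitric oxide synthase gene Nos1. Members were all probe sets of the array that carry exactly 1 annotated gene symbol and whose symbol is one of these, which gave 11 probe sets for 10 of 8252 genes. Pvalb had a pair of probe sets and each of the other 9 genes had 1. The RNA was total RNA of area CA1 of the hippocampus from young male C57BL/6J mice, an inbred strain. Every one of the 4 samples came from controls, which were handled but had no further treatment. They were taken at 1, 2, 4 or 6 hours, counted from the last shock given to the treated mice of the experiment, with 1 sample per time. No shocked mouse was analysed here, and it is not stated if a sample is 1 animal or a pool. Time, animal, dissection and array therefore cannot be told apart.

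Interneurons are the minority of hippocampal neurons that release GABA and inhibit the pyramidal cells. Glutamate decarboxylase makes GABA from glutamate, and the vesicular transporter Slc32a1 loads it for release. Classes of interneuron differ in the part of the pyramidal cell they contact and in the peptide or calcium buffer they hold. Parvalbumin cells contact the cell body and axon, somatostatin cells the dendrites, and many vasoactive intestinal peptide cells other interneurons. Cholecystokinin is made by a class of basket cell and, in mouse hippocampus, also by pyramidal cells, so its signal in whole tissue is not that of interneurons alone.

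The signals are intensities on a linear scale, as deposited, and log2 differences were taken after quantile normalization with values under a floor of 35.0 set to it. A probe set was tested where its mean log2 value reached the 40th percentile (a signal of 105), which 7453 of 12422 probe sets did, 10 of the 11 member probe sets among them. The Gad2 probe set did not. Log2 differences are a sample's value minus the average of the other 3 samples, followed by the SD among those others. They have no replicate check, since each time had 1 array. The number of arrays limits the precision. In the 1-hour sample the 3' signal of Gapdh, a housekeeping transcript, was 4.52 times its 5' signal, whereas this ratio was 1.18, 1.37 and 1.20 at 2, 4 and 6 hours. For beta-actin the ratio differed less, with 2.34 at 1 hour and 2.00, 1.80 and 1.76 at the later times. The CA1 label was checked with markers, whose levels cannot be set against each other because each has its own probes. Wfs1, a marker of CA1 pyramidal cells, gave 2292, 2274, 2797 and 1964 at 1, 2, 4 and 6 hours, the order kept below. Of 6 dentate gyrus markers 3 were tested, Calb1 (given below), Dsp with 175, 330, 185 and 225, and Lct with 355, 405, 308 and 282. The others were under the filter. Prox1, a factor of dentate granule cells, had 46.5, 56.1, 25.1 and 59.8, Tdo2 had 38.0, 109, 162 and 154, and Trpc6 had 3.6, 42.4, 5.8 and 21.9. The summed signal of 6 choroid plexus genes, with transthyretin among them, was 3464 at 1 hour, and 1104, 1319 and 1062 at the later times. Most of this difference came from transthyretin (Ttr), with 2246, 199, 353 and 143. All 4 tested genes of the list lay above the other samples at 1 hour, Igfbp2 by only 0.002 on the log2 scale.

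The sequences before the start sites of Sst, Npy and Dlx1 are shown because these members had their lowest signal in the same sample, and that of Cck because it is a peptide gene that did not. Promoter entries of RefSeq (build GRCm38.p6) matched 9 of the 10 genes, without Calb2. Each line holds the 250 bases before the annotated start site, 5' to 3' on the gene's strand, with the letters TGACG or CGTCA in capitals. These letters are the core of the cAMP response element, through which neuronal activity and cyclic AMP act on peptide genes. Sst lies on the minus strand (chr16:23890845-23891094), Npy on the plus strand (chr6:49822460-49822709), Dlx1 on the plus strand (chr2:71529195-71529444) and Cck on the minus strand (chr9:121495695-121495944).
Sst: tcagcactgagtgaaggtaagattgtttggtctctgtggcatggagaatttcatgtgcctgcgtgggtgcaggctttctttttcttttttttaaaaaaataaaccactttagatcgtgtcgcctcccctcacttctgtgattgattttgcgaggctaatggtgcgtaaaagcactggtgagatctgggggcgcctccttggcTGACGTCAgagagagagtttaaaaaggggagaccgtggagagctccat
Npy: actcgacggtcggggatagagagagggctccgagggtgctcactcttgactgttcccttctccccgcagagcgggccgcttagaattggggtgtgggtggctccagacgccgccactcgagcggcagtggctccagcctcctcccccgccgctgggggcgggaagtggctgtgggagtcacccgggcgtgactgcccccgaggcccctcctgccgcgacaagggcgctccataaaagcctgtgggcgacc
Dlx1: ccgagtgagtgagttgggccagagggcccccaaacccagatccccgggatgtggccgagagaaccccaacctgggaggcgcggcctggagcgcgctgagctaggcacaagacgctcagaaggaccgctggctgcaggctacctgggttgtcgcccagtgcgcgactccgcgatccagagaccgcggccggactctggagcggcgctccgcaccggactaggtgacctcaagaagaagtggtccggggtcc
Cck: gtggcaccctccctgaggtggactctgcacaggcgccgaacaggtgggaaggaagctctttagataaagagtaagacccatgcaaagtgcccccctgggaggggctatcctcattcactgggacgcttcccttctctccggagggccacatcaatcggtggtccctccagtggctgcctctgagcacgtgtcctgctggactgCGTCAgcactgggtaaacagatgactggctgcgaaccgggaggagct
The Sst window held the whole palindromic element TGACGTCA, which begins 48 bases before the start site and holds the core on both strands. The whole element stood in 1 of 10 windows of member genes (Pvalb has a pair of windows), against 1.55% of all 32851 windows of the same length. The core was found in 5 of the 10, those of Sst, Cck, Vip, Gad2 and Nos1, against 17.8% of all windows on either strand. In Cck it begins 47 bases before the start site. The windows of Npy and Dlx1 held none. The guanine and cytosine content was 47.2% for Sst, 69.2% for Npy, 68% for Dlx1 and 60% for Cck. A match of letters is a description of the sequence and shows no binding.

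Time was tested as a linear trend from 1 to 6 hours in limma, and no member passed. Of 10 tested member probe sets, 0 passed an adjusted p of 0.05, and the percentage over all tested probe sets was 0. At an unadjusted p under 0.05 it was 1 of the 10, Calb2, against 6.27% of all. The trend was positive in 6 and negative in 4, and it was positive in 47.2% of all tested probe sets. The range between the highest and lowest sample reached 2-fold in 2 of the 10, Dlx1 and Nos1, against 17.8% of all tested probe sets, a share near the background. The median range was 0.56 on the log2 scale over the 10 tested member probe sets and 0.56 over all 7453. Dim probe sets spread more than bright ones. A range of 2-fold or more was found in 38.4% of tested probe sets with a mean log2 value under 8, in 11.3% of those between 8 and 10, and in 5.05% of those at 10 or more. Dlx1 and Nos1 had mean log2 values of 7.98 and 6.92.

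**Figure D1:**
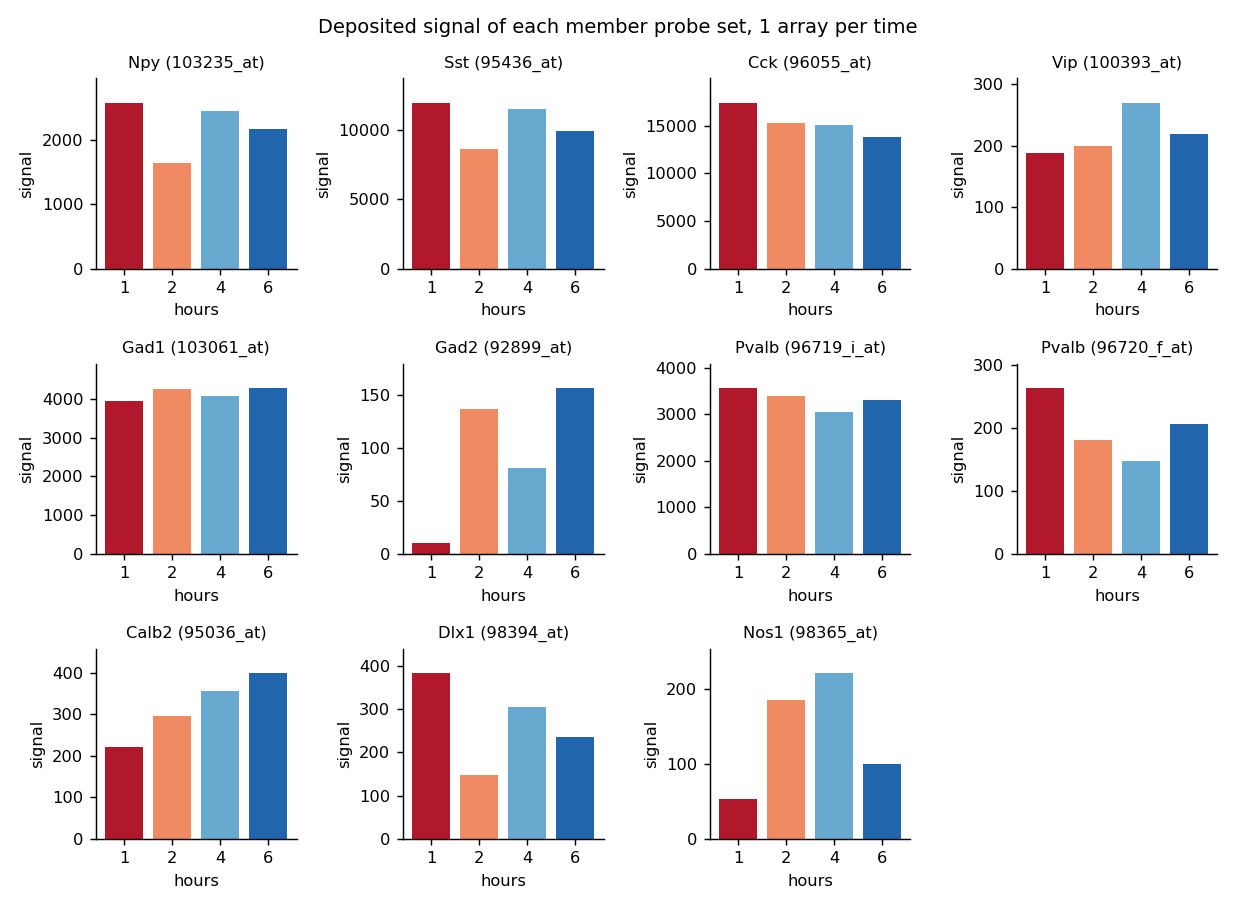
Deposited signal (linear scale, each axis from 0) of the 11 member probe sets in the 1-, 2-, 4- and 6-hour control samples, 1 array per time and therefore no error bars. Npy, Sst and Dlx1 are lowest at 2 hours. Vip, Gad1, Gad2, Calb2 and Nos1 are lowest at 1 hour, and Calb2 is higher in each later sample.

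Among the peptides, neuropeptide Y, which damps glutamate release from hippocampal terminals, showed the widest range. Npy had signals of 2572, 1646, 2455 and 2171 at 1, 2, 4 and 6 hours. The 2-hour sample was the lowest, with a log2 difference of -0.52 (SD 0.13), or 1.43-fold lower. The 1-, 4- and 6-hour samples lay close together. Its trend over time was 0.01 ± 0.31 (SE, adjusted p = 0.998).

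Somatostatin, an inhibitory peptide of dendrite-targeting interneurons, had 11953, 8664, 11526 and 9954. The 2-hour sample was again the lowest, with a log2 difference of -0.24 (SD 0.09). This difference was -0.36 (SD 0.14) with the deposited scaling and -0.41 (SD 0.15) with the array medians made equal. Which sample was highest depended on the scaling, since it was the 1-hour sample in the deposited signal and the 4-hour sample after quantile normalization. The trend of Sst was 0.05 ± 0.20 (SE, adjusted p = 0.971), and its interval ran from -0.43 to 0.53. Leaving out the 2-hour sample made the trends of Npy and Sst -0.25 and -0.067.

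Cholecystokinin had 17351, 15308, 15019 and 13808, so that each later sample was lower than the one before. The difference was small: the whole range was 0.25 on the log2 scale, smaller than that of all but 11.6% of tested probe sets. The trend of Cck was -0.24 ± 0.16 (SE) from 1 to 6 hours, with an interval from -0.63 to 0.15 and an adjusted p of 0.777. Vasoactive intestinal peptide, which marks interneurons that inhibit other interneurons, had 188, 199, 269 and 218. Here the 4-hour sample stood highest, 0.43 above the others (SD 0.09), and the 1-, 2- and 6-hour samples lay close together. The trend of Vip was 0.28 ± 0.41 (SE, adjusted p = 0.902).

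Among the GABA synthesis genes, Gad1 had a narrow and Gad2 a wide range over the 4 samples. Gad1 encodes the larger isoform of glutamate decarboxylase, which supplies most of the basal GABA of the brain. Its signal was 3952, 4258, 4085 and 4280 (mean 4144 ± 155, SD, n = 4). This was the narrowest range among the members, 0.18 on the log2 scale, and only 5.25% of tested probe sets had a narrower one. The trend of Gad1 was 0.11 ± 0.19 (SE, adjusted p = 0.916). The 2-hour sample, lowest for Npy and Sst, lay 0.09 above the other 3 for Gad1, a distance close to their SD of 0.09. That distance was 0.05 (SD 0.06) with the deposited scaling and 0.00094 (SD 0.04) with the array medians made equal.

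Gad2 encodes the smaller isoform, which is enriched at axon terminals. Its signal was 10.2, 136, 80.7 and 156. The 1-hour value lies below the floor and is only an upper bound, and with the floor in its place the 1-hour sample was at least 3.42-fold lower than the mean of the other 3. In those 3 the range was still 0.91 on the log2 scale. The probe set was under the filter for tests, so no p is given. Its 1-hour value stands beside 3'/5' ratios of 4.52 for Gapdh and 2.34 for beta-actin in that sample, and the part of RNA quality in it was not tested. In such tissue samples, fewer cells of a type and less RNA per cell cannot be told apart.

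**Figure D2:**
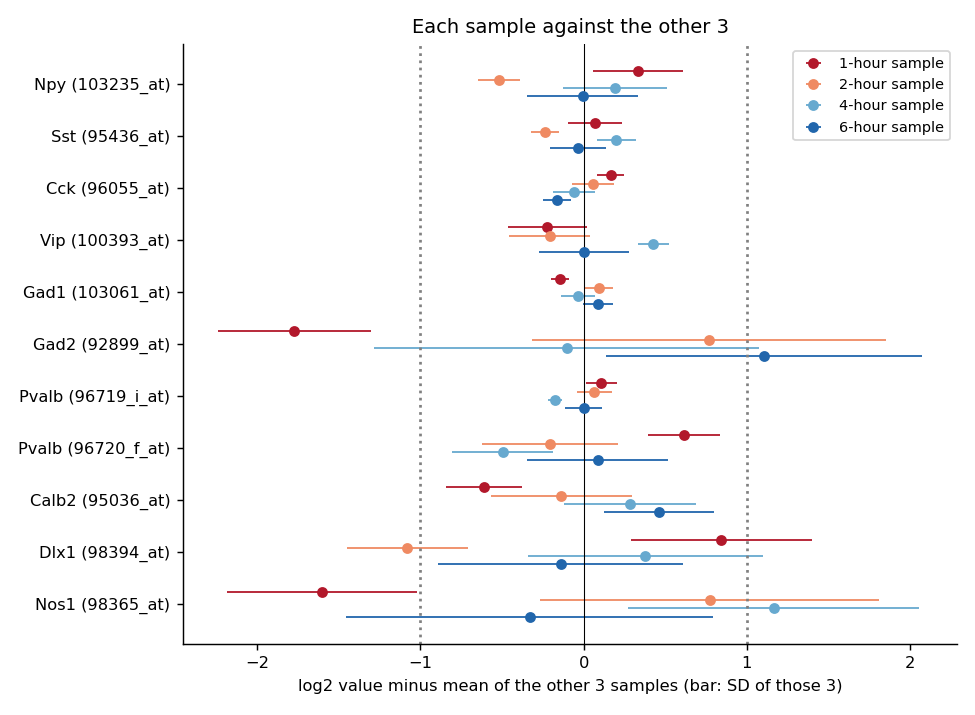
Log2 value of each control sample minus the mean of the other 3, for the 11 member probe sets. Bars are the SD of those other 3 samples and dotted lines mark 2-fold. The 1-hour sample lies past 2-fold for Gad2 and Nos1, the 2-hour sample for Dlx1, the 4-hour sample for Nos1 and the 6-hour sample for Gad2.

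Parvalbumin, the calcium buffer of fast-spiking basket cells, was targeted by a pair of probe sets with suffixes that the manufacturer gave to sets not meeting all its selection rules. The set with the suffix _i_at had 3560, 3395, 3057 and 3302, a range of 0.21. The set with the suffix _f_at had 263, 180, 147 and 206, a range of 0.83. Both had their highest value at 1 hour and their lowest at 4 hours, and their values, each taken from its own mean, differed by up to 0.38 on the log2 scale. The trends of Pvalb were -0.12 ± 0.20 (SE, adjusted p = 0.911) and -0.32 ± 0.48 (SE, adjusted p = 0.903).

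Calretinin, the calcium buffer of interneurons that contact other interneurons, had the smallest unadjusted p of the members. Calb2 had 222, 295, 357 and 399, higher in each later sample. The trend was 0.77 ± 0.32 (SE), with an interval from 0.01 to 1.53 and an unadjusted p of 0.048, and it failed the correction (adjusted p = 0.738). Leaving out 1 sample at a time, the trend lay between 0.56 and 1.07. No member had an unadjusted p under 0.05 in these fits, which hold fewer samples, or with the floor at the 40th percentile. The 1-hour sample had a log2 difference of -0.61 (SD 0.23). That sample had 3'/5' ratios of 4.52 for Gapdh and 2.34 for beta-actin, and the part of RNA quality in the Calb2 values was not tested. Calretinin is also made in the midline thalamus, and 8 other thalamus and habenula markers were on the array, 7 of them tested. Their summed signal was 2055, 1959, 2606 and 2464 by hour. The trend was positive in 5 of the 7, against 47.2% of all tested probe sets, with a median of 0.42 against -0.02 over all. The sign of the trend differed between markers. Tcf7l2, a transcription factor of thalamic neurons, had 244, 325, 491 and 443 (trend 0.86), whereas Zic1, a zinc finger factor, had 264, 222, 216 and 142 (trend -0.81) and Tac1, a tachykinin precursor, had 225, 158, 184 and 149 (trend -0.41). The remaining positive trends were 1.43 for Rora, 0.72 for Lef1, 0.42 for Prkcd and 0.23 for Rgs16. Gbx2, another thalamic transcription factor, was below the floor in each sample. The part of thalamic tissue in the Calb2 values was not tested.

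The transcription factor Dlx1 and the enzyme Nos1 ranged widest of the tested members. Dlx1, a homeodomain factor of interneurons, had 383, 149, 305 and 237. The 2-hour sample was the lowest, with a log2 difference of -1.08 (SD 0.37), or 2.11-fold lower. Of all tested probe sets, 1.72% lay 2-fold or more below the others in the 2-hour sample, and among the 10 of the members it was Dlx1 alone. Without the 1-hour sample the difference was -0.91 (SD 0.28), under 2-fold. The trend of Dlx1 was -0.17 ± 0.62 (SE, adjusted p = 0.966), and 0.89 without the 1-hour sample. The closest pattern among 6742 tested probe sets with 1 symbol, by the largest difference of centred log2 values over the 4 samples, was that of Pbx3, a homeodomain factor, with 274, 110, 237 and 185 (largest difference 0.07). The next was Cr1l, a complement regulator, with 343, 147, 283 and 227 (0.08), and 18 probe sets in all lay within 0.2.

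Nos1, which makes nitric oxide in a subset of interneurons and at synapses, had 53.2, 186, 221 and 101. The 1-hour sample was lowest, with a log2 difference of -1.60 (SD 0.58), or 3.04-fold lower, and that of the 4-hour sample was 1.16 (SD 0.89). Of all tested probe sets, 4.54% lay 2-fold or more below the others in the 1-hour sample and 1.07% lay as far above in the 4-hour sample. The 6-hour sample also lay low, so that the range without the 1-hour sample was 1.12. The trend of Nos1 was 0.66 ± 0.92 (SE, adjusted p = 0.896), and -1.04 without the 1-hour sample. With the floor at the 40th percentile it was -0.041, and no sample then lay 2-fold from the others. The 1-hour value stands beside that sample's ratios of 4.52 for Gapdh and 2.34 for beta-actin, and the part of RNA quality in it was not tested. The closest pattern was that of Cop1, a ubiquitin ligase, with 112, 474, 424 and 224 (largest difference 0.23), followed by Efnb1, an ephrin, with 93.8, 278, 299 and 203 (0.27), and none lay within 0.2.

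**Figure D3:**
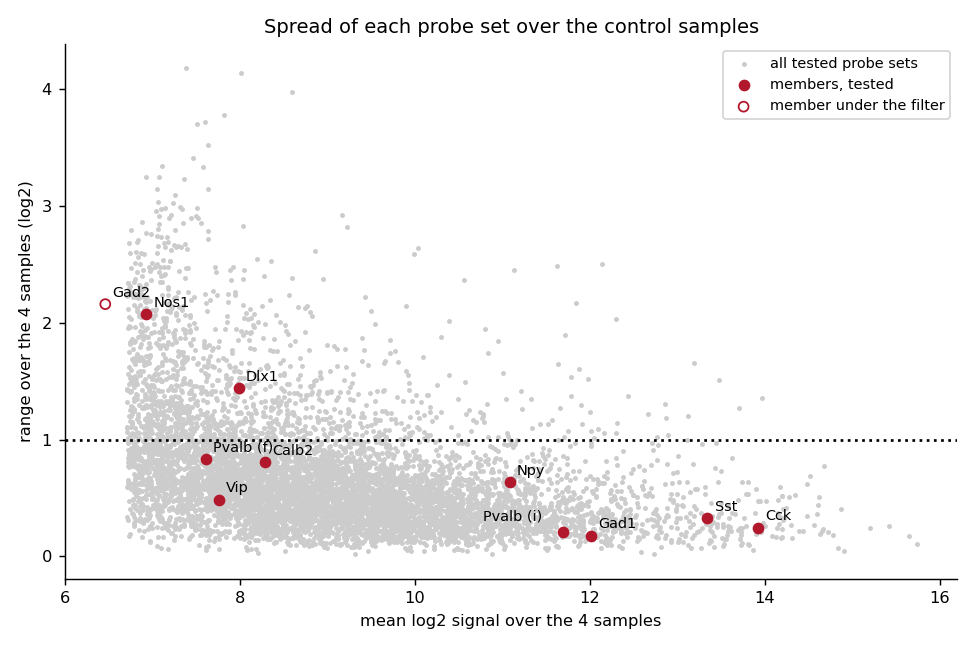
Range over the 4 control samples against mean log2 signal for the 7453 tested probe sets (grey), the tested members (red) and Gad2, which is under the filter (open circle). The dotted line marks 2-fold. Dlx1, Nos1 and Gad2 lie above it at the dim end, while Gad1, Cck and Sst lie near the bottom at the bright end.

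The 1-hour sample was lowest in 4 of 10 tested member probe sets, against 29.2% of all tested probe sets. The 2-hour sample was lowest for Npy, Sst and Dlx1, 3 of 10 tested member probe sets, against 22.8% of all tested probe sets, so the count itself is near the background. Related genes were then read in the same sample, with Dlx2 and Slc32a1 singled out after their values had been seen. Dlx2, the neighbour and partner of Dlx1, had 180, 102, 206 and 153, with a log2 difference of -0.88 in the 2-hour sample (SD 0.22). Slc32a1, the vesicular GABA transporter, had 3596, 2599, 3469 and 3671, with a log2 difference of -0.43 in the 2-hour sample (SD 0.04). Both come from lists in which most tested genes were higher at 2 hours. Of 9 tested interneuron transcription factors 6 were higher there than the mean of the other 3 samples (median difference 0.08), although the summed signal of the 12 on the array was lowest there (4359, 3798, 4081 and 3820), and so were 5 of 7 tested genes of GABA synthesis, release and uptake (median difference 0.20). Fewer were higher there in the lists of other interneuron markers (5 of 13, median difference -0.03) and other peptide precursors (1 of 11, -0.14). The count was 4 of 7 for peptide receptors and 9 of 15 for peptide processing. For nitric oxide genes it was 3 of 6, and for calcium buffers 4 of 5. Over all tested probe sets the median difference at 2 hours was 0.01, and the share higher there was not counted. Lhx6, a transcription factor of parvalbumin and somatostatin cells, had 399, 445, 409 and 442, and its 2-hour sample lay 0.06 above the others (SD 0.06). Reelin, a secreted protein of interneurons, had 825, 859, 921 and 831. Over the 13 tested other interneuron markers, the 2-hour log2 difference ran from -1.42 for Pdyn to 0.97 for Nxph1. Among other cells, the summed signal was lowest at 2 hours for 8 oligodendrocyte genes (22826, 20445, 23403 and 25785), 9 microglia genes (9022, 8614, 9752 and 9076), 4 striatum genes (2152, 2096, 2471 and 2178) and the 8 thalamus markers above. It was not for 10 pyramidal neuron genes (15828, 18139, 18096 and 16548), 9 endothelial genes (2787, 2786, 2361 and 1862), 8 astrocyte genes (23148, 23340, 20242 and 21190), 6 neocortex and subiculum genes (3928, 4332, 4858 and 4110.0) and 6 dentate gyrus genes (2373, 2487, 2289 and 2397). These sums weigh bright genes most. Gene by gene, the 2-hour sample was lowest in 2 of 7 tested oligodendrocyte genes and 2 of 7 microglia genes. It was lowest in 1 of 3 striatum genes and 1 of 7 thalamus markers. For the pyramidal, endothelial, astrocyte, neocortex and dentate lists it was 1 of 8, 0 of 6, 2 of 8, 2 of 4 and 1 of 3. Among related lists it was lowest in 5 of 13 other interneuron markers and 4 of 11 other peptide precursors. It was lowest in 2 of 9 transcription factors, 2 of 7 GABA genes and 2 of 7 peptide receptors. For peptide processing, nitric oxide genes and calcium buffers it was 2 of 15, 2 of 6 and 1 of 5, against 22.8% of all tested probe sets. The part of the tissue's cell makeup in the 2-hour values of Sst, Npy and Dlx1 was not tested.

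**Figure D4:**
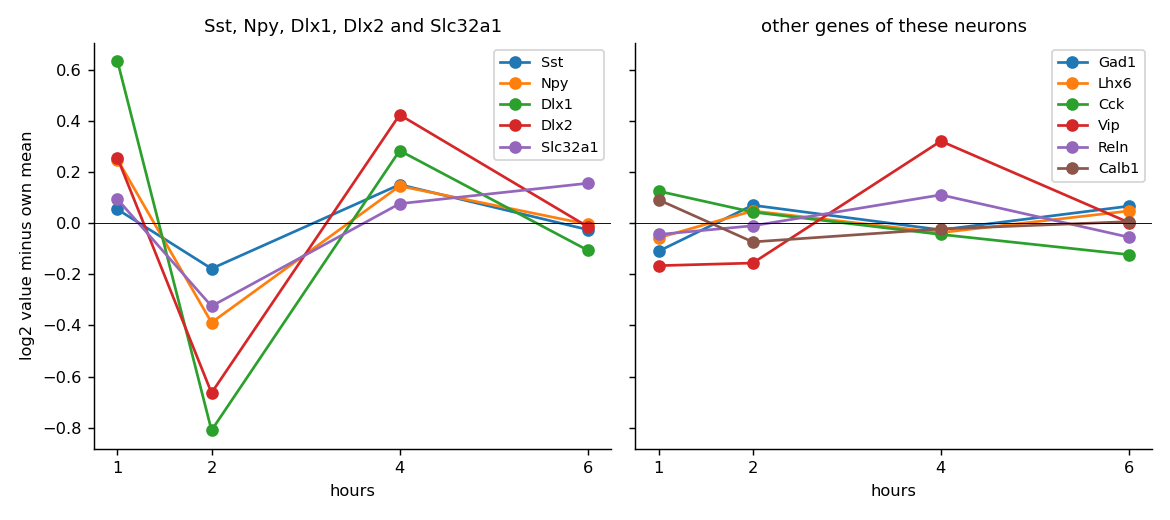
Log2 value minus the gene's own mean (vertical axis) by hour for 5 genes chosen because their 2-hour sample was lowest (left) and for 6 other genes found in inhibitory neurons (right), 1 array per time. Of the latter, Cck is also made by pyramidal cells and Calb1 is also counted among the dentate gyrus markers. The left-hand genes dip at 2 hours by different amounts, and on the right Calb1 is also lowest there, with a log2 difference of -0.10. Not drawn are Pdyn (-1.42), Htr3a (-0.32), Penk (-0.14) and Nek7 (-0.12), which were also lowest there. With Calb1 they make 5 of the 13 tested other interneuron markers, and another 5 were higher there than the mean of the others.

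The remaining genes of the GABA pathway were described as a list, with members left out here and in every list below. Of 7 tested genes of GABA synthesis, release and uptake, 4 had a positive and 3 a negative trend, and 0 passed the adjusted or the unadjusted threshold. Gabarap, a protein of GABA receptor traffic and autophagy, ranged widest, with 939, 2483, 1464 and 3182 and a trend of 1.19 (adjusted p = 0.74), and it was the 1 gene of the list with a range of 2-fold. Slc1a1, a neuronal glutamate transporter, had 519, 661, 479 and 739. Slc6a13, a GABA transporter of the meninges, had 443, 503, 473 and 352. Glul, the glutamine synthetase of astrocytes, had 794, 731, 820 and 997, Slc38a2, a glutamine transporter, 419, 444, 328 and 372, and Gphn, the scaffold of inhibitory synapses, 766, 760, 634 and 683. The list's median difference was 0.08, 0.20, -0.21 and 0.21 in the order of hours, against 0.05, 0.01, 0.01 and 0.00 over all tested probe sets.

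Transcription factors of interneurons numbered 9 tested of 12 on the array, and 0 passed the adjusted or the unadjusted threshold. A range of 2-fold or more was seen in 3, against 17.8% of all tested probe sets. Maf, a factor of parvalbumin and somatostatin lineages, had 16.7, 207, 133 and 212, with the 1-hour value below the floor. Nr2f2, a factor of the caudal ganglionic eminence, had 155, 308, 408 and 363, and Dlx2 was given above. Dlx5 ranged by 0.76, with 170, 150, 99.2 and 100.2. Other interneuron markers numbered 13 tested of 16, with 7 positive and 6 negative trends. Of these 13, 1 passed the unadjusted threshold, against 6.27% of all tested probe sets, and 0 the adjusted one. That gene was Kcnab3, a potassium channel subunit, with 93.8, 209, 200 and 297. Nxph1, a neurexin ligand, had 43.5, 231, 106 and 339, a range of 2.98. Pdyn, the prodynorphin gene, had 144, 69.3, 157 and 246, and Cort, a peptide related to somatostatin, 738, 862, 907 and 487. Maf, Nr2f2, Nxph1 and Kcnab3 were lowest at 1 hour, where the ratio was 4.52 for Gapdh and 2.34 for beta-actin, and the part of RNA quality in these values was not tested.

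Receptors for the 4 peptides were present on the array with 15 genes, of which 7 were tested, and 0 passed the adjusted or the unadjusted threshold. Npy2r, the presynaptic neuropeptide Y receptor of the hippocampus, had 815, 846, 892 and 796, a range of 0.18. Npy1r, a postsynaptic one, had 76.0, 155, 144 and 74.4. Sstr4, a somatostatin receptor abundant in CA1, had 566, 844, 812 and 754, while Sstr2 ranged by 1.27, with 342, 148, 187 and 271. Cckbr, the brain receptor of cholecystokinin, had 767, 679, 714 and 751. Vipr1 had 81.5, 150, 130 and 119, and Adcyap1r1, which binds the related peptide PACAP, had 223, 174, 141 and 197.

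Of 15 tested genes that process peptides or build dense core vesicles, 8 had a positive and 7 a negative trend. The unadjusted threshold was passed by 2 of the 15, against 6.27% of all tested probe sets, and the adjusted one by 0. These were Pcsk1n, an inhibitor of prohormone convertase, and Chga, a granin of vesicle cores. Pcsk1n had 7079, 8293, 11650 and 10133, with a trend of 0.62 (adjusted p = 0.74). Chga had 707, 1072, 1302 and 1263, with a trend of 0.73 (adjusted p = 0.74). Pcsk6, a convertase, ranged widest with 79.0, 440, 396 and 355, and Ptprn, a protein of vesicle membranes, had 2292, 3438, 3439 and 3784. The 1-hour sample was the lowest in 8 of the 15, against 29.2% of all tested probe sets. That sample also had the Gapdh ratio of 4.52, the beta-actin ratio of 2.34 and the highest choroid plexus sum, and their part in these values was not tested. Among other peptide precursors, 11 were tested of 19, and 1 passed the unadjusted threshold, against 6.27% of all tested probe sets. That was the oxytocin gene Oxt, with 222, 143, 612 and 443. Trh, the precursor of thyrotropin-releasing hormone, had 117, 153, 270 and 130.

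Of the genes around nitric oxide, 6 were tested of 10, and 0 passed the adjusted or the unadjusted threshold. Dlg4, the scaffold that ties Nos1 to NMDA receptors, had 549, 840, 935 and 860, and the 1-hour sample was its lowest, as for Nos1. Hmox2, which makes carbon monoxide, had 313, 258, 271 and 411, Ddah2, which degrades an inhibitor of nitric oxide synthases, 612, 597, 748 and 753, and Pde9a, a cyclic GMP phosphodiesterase, 156, 167, 180 and 145. The other EF-hand calcium buffers and sensors, 5 tested of 6, had a median range of 0.16. Vsnl1, a neuronal calcium sensor, ranged widest with 7098, 7957, 4817 and 8339. Hpca, the hippocalcin of pyramidal cells, had 13008, 16704, 15625 and 16368, Calb1, the calbindin gene, 1755, 1545, 1604 and 1655, and Hpcal1, a relative of Hpca, 1153, 1263, 1290 and 1280. The median difference of this list was -0.02, 0.02, -0.03 and 0.04 in the order of hours.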

How the data were processed

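RNA of CA1 from 4 handled control mice or pools was measured on 1-colour arrays. The authors' deposited table holds linear intensity values per probe set. The arrays had been scaled alike, judged by the values, with a mean of 500.3 after trimming 2% at each end. Array software is not given in the sources used here. Of 12488 probe sets, 66 controls were left out of tests. Symbols came from the platform annotation, with current names from the GRCm38.p6 gene table for genes outside the members.

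Columns were quantile normalized, floored at the 20th percentile and put on the log2 scale. Dim probe sets were left out as stated, and limma 3.58.1 in R 4.3.3 (lmFit, eBayes with an intensity trend) fitted hours linearly, leaving 2 residual degrees of freedom. Two-sided p-values were adjusted over 7453 probe sets (Benjamini-Hochberg). They reflect only the spread among these samples, which may be technical. The other lists entered by the probe set with the highest mean of each gene.

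On simulated data, the trend fit on 7453 probe sets recovered 0%, 34.5% and 65.5% of 200 probe sets changed by 1, 2 and 3 log2 units, and called 0, 0 and 3 others. Members and lists were chosen with earlier results of these data known. Named were all members, every tested gene of the GABA and receptor lists, up to 4 genes of widest range in other related lists, and 2 nearest patterns for members ranging 2-fold. Genes outside this rule, named after their values were seen, are Wfs1, Prox1, Tdo2, Trpc6, Dsp, Lct, Ttr, Igfbp2, Tcf7l2, Zic1, Tac1, Rora, Lef1, Prkcd, Rgs16, Gbx2, Lhx6, Reln, Htr3a, Penk, Nek7, the Gapdh and beta-actin controls and the untested genes of the closing section. Alternatives are listed with their effects in the closing section. Figures used matplotlib 3.10.9 in Python 3.11.15.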

Additional observations from a re-analysis of the deposited data

How the results depend on the processing

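With 1 array per time, no time has a spread of its own, and the trend rests on 2 residual degrees of freedom. No paired analysis was possible because all samples belong to 1 group. Of 316 alternative values computed here, 281 kept their direction and side of the threshold or moved little, 12 turned in sign and 23 moved further. No member passed an adjusted p of 0.05 under any of these alternatives, and over all probe sets the number was 0 in each except without the 2-hour sample, where it was 3 (0 to 3 leaving out 1 sample at a time). Uncalled trends turned for Sst with the deposited scaling (-0.063) and with equal medians (-0.067), for Nos1 with a floor at the 40th percentile (-0.041), and for Npy with log2 of hours (-0.074). Leaving out 1 sample at a time, trends ran from -0.067 to 0.27 for Sst, -0.25 to 0.49 for Npy, -0.0017 to 0.17 for Gad1, -1.26 to 0.28 for the dimmer Pvalb set, -0.73 to 0.89 for Dlx1 and -1.04 to 3.05 for Nos1. The last was not tested without the 4-hour sample, where it fell under the filter.

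Members ranging 2-fold or more numbered 1 with the higher floor and 1 to 2 leaving out 1 sample. With that floor 0 members lay 2-fold from the others at 1 hour and 0 at 4 hours. With no filter, which lets Gad2 in, they were 2 at 1 hour and 1 at 6 hours. Leaving out 1 sample gave 0 to 1 at 2 hours and 0 to 1 at 4 hours, with 0 without the 1-hour sample in both. The share of all probe sets ranging 2-fold was 27.6% with no filter and 8.94% to 13.9% leaving out 1 sample.

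List medians also moved. With the mean over all probe sets of a gene, the receptor list's median was 0.13 at 1 hour (-0.033) and -0.023 at 4 hours (0.13), that of peptide processing 0.0059 at 1 hour (-0.10) and that of thalamus markers 0.068 at 6 hours (0.37). Other scalings and the omission of the 1-hour sample were added for lists after the data had been seen. The calcium buffer median was 0.021 with the deposited scaling and 0.058 with equal medians at 1 hour (-0.023), and -0.025 with equal medians at 2 hours (0.019). Without the 1-hour sample the receptor median was 0.10, 0.034 and -0.15 at 2, 4 and 6 hours (0.0039, 0.13 and 0.031), and that of thalamus markers -0.015 at 6 hours (0.37). Values in brackets are those of the quantile-normalized probe set with the highest mean over all 4 samples. The causes were not tested.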

Other observations

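Receptors of the 4 peptides that were under the filter for tests were Npy4r, Npy5r, Npy6r, Sstr1, Sstr3, Sstr5, Cckar and Vipr2. Among them Sstr1 was below the floor in each sample, with signals of 10.8, 14.4, 15.1 and 15.3 by hour, and Sstr5 had 57.1, 54.6, 114 and 176. Cckar, the alimentary receptor of cholecystokinin, had 104, 57.7, 46.4 and 65.4. Erbb4, the neuregulin receptor of interneurons, had 23.7, 78.5, 28.1 and 33.2, and Cnr1, the cannabinoid receptor of cholecystokinin basket cells, 22.2, 46.0, 29.7 and 26.2, both under the filter on this array.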
